A study of Mus musculus with 8 samples.

Results

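The 33 genes described here include the core of YAP and TAZ signalling (the coactivators, their TEAD partners and their regulators). The rest are genes listed as YAP targets and genes that mark the fetal and regenerating intestinal epithelium. All were taken by name from a written list, which was chosen with earlier results of these data known. All 33 were found among the 32728 genes of the deposited count table. Of these, 32 passed the filter on low counts, as did 16719 genes in all, and Anxa10 did not. The libraries are poly(A) RNA-seq of organoids labelled as mouse colon cancer of C57BL/6 origin that carry CRISPR knockouts of Apc, Trp53 and Smad4, an engineered model of the APC, p53 and SMAD4 losses seen in colorectal tumours. All 4 groups carry these knockouts and were grown with B27, noggin and galunisertib, an inhibitor of the TGF-beta receptor kinase. The groups were CTO19 without EGF for 7 days (CTO19 noEGF), CTO19 with EGF for 3 days (CTO19 EM), apsMC706 without EGF for 7 days (apsMC706 noEGF) and apsMC706 with EGF for 3 days (apsMC706 EM), with 2 libraries each. Each of the 2 organoid lines is a single line, and the design text calls them biological replicates of the genotype. Medium goes with days in culture, and line goes with the labelled sex (male for CTO19, female for apsMC706), so these cannot be told apart. Nothing in the labels says that the 2 libraries of a group came from separate cultures, so p-values measure the spread between libraries, which may be technical.

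YAP1 and TAZ (the product of Wwtr1) are transcriptional coactivators that are held in the cytoplasm when the Hippo kinases LATS1 and LATS2 phosphorylate them. In the nucleus they bind TEAD factors, which recognise the sequence GGAATG, and they raise transcription of genes for matricellular proteins, growth factors and their own inhibitors. In the intestine YAP is best known for the regenerative state after injury, in which crypt cells lose adult stem cell markers and take up a fetal-like programme marked in mice by Ly6a, Anxa1 and Clu.

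Promoter sequences are shown for the 6 members with the largest difference in response between the lines among those whose promoter window holds a TEAD motif, so that the motif can be seen beside the responses. The motif GGAATG, or CATTCC on the other strand, was searched on both strands of 32851 RefSeq windows (build GRCm38.p6) that run from 250 bases before to 50 bases after a gene's start. It was present in 14.7% of all windows, and in 14 of the 33 windows (42.4%) that belong to the 26 members with a window. Many members were listed because they are YAP or TEAD genes or targets, so these shares are descriptive and not an independent test. Each sequence reads 5′ to 3′ on the gene's strand, with the motif in capitals, and is credited to RefSeq. The 250 bases before the start are given for Cyr61, Axl, Vgll4 and Edn1, and 30 bases around each motif for Ankrd1 and Amotl2, whose windows overlap an annotated exon.
Ankrd1, chr19:36120037-36120066, minus strand, motif 210 bases before the start: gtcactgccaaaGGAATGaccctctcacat
Ankrd1, chr19:36119950-36119979, minus strand, motif 123 bases before the start: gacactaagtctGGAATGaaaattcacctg
Cyr61, chr3:145649986-145650235, minus strand: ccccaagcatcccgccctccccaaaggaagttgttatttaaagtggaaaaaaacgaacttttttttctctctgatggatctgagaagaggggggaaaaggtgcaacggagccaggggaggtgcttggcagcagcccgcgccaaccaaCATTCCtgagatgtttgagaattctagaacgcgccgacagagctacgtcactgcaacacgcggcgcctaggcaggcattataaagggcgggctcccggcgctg
Axl, chr7:25788734-25788983, minus strand: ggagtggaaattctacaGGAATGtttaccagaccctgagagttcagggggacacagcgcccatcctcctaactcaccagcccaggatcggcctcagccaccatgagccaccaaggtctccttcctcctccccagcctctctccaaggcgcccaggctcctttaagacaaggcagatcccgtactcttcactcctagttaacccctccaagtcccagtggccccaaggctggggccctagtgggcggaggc
Vgll4, chr6:114969204-114969453, minus strand: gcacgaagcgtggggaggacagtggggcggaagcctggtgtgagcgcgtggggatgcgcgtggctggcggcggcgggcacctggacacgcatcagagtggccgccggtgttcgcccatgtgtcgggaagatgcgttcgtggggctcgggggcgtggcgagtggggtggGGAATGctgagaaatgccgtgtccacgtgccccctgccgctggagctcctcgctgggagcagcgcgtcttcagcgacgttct
Edn1, chr13:42301226-42301475, plus strand: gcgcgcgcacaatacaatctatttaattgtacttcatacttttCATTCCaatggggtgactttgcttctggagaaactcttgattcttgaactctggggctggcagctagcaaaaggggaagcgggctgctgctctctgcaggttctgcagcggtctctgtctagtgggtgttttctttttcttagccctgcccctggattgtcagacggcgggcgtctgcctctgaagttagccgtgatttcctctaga
Amotl2, chr9:102717727-102717756, plus strand, motif 65 bases before the start: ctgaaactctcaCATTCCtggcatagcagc

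These 6 genes did not share a response. Ankrd1 and Cyr61 rose in apsMC706 and fell in CTO19, Axl fell in CTO19, Vgll4 moved the opposite way to Ankrd1, and Edn1 and Amotl2 rose in both lines, as set out gene by gene further on. Motifs also lay in windows of Wwtr1, Yap1, Ajuba, Lats2, Tead3 and Anxa1. The AP-1 motif TGANTCA, read on both strands, was in 7.81% of all windows and in 6 of the 33 member windows (18.2%), those of Procr, F3, Emp1, Gja1, Anxa2 and Anxa10. No member window held both motifs. Only 26 of the 33 members had a window, and the others were not searched. A member missing from these lists, such as Ctgf, is therefore not shown to lack a motif. A match is a run of letters in a fixed window, and binding was not measured.

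Reads of the targeted genes do not by themselves check a CRISPR edit, but the lines differed in them: Apc was at 59.8 to 78.2 CPM (counts scaled to library size with TMM factors) in CTO19 and 177 to 198 CPM in apsMC706 libraries, Trp53 at 28.4 to 33.3 CPM in CTO19 and 13 to 16.4 CPM in apsMC706, and Smad4 at 10.8 to 19.1 CPM in CTO19 and 33.7 to 39.9 CPM in apsMC706. Library totals were 35650262 to 38953838 counts. The summed level of 5 epithelial markers was 2904 to 3712 CPM in every library. The lines differed in tissue markers, and the markers differed between the media. The 6 colon and intestine markers summed to 68.7 and 89.4 CPM in CTO19 noEGF and 37.3 and 43.4 CPM in CTO19 EM libraries, and to 673 and 672 CPM in apsMC706 noEGF and 978 and 962 CPM in apsMC706 EM libraries, with Cdx1 and Krt20 near 0 in every library. The 5 squamous markers summed to 6567 and 5914 CPM in CTO19 noEGF and 8601 and 8842 CPM in CTO19 EM libraries, and to 5.4 to 12 CPM in apsMC706 libraries. The markers of CTO19 thus go against its label as a colon line, and line and tissue identity cannot be told apart. The part of these marker differences in the member responses was not tested. Fibroblast markers summed to 10.9 to 11.5 CPM in CTO19 noEGF and 1.88 to 1.91 CPM in CTO19 EM libraries, and to 7.77 to 8.93 CPM in apsMC706 noEGF and 4.05 to 4.14 CPM in apsMC706 EM libraries. Endothelial markers summed to 7.95 to 8.5 CPM in CTO19 noEGF and 2.5 to 2.95 CPM in CTO19 EM libraries, and to 28 to 28.1 CPM in apsMC706 noEGF and 6.61 to 7.73 CPM in apsMC706 EM libraries. Immune markers summed to 39.9 to 44.9 CPM in CTO19 noEGF and 16 to 17 CPM in CTO19 EM libraries, and to 13 to 13.9 CPM in apsMC706 noEGF and 7.78 to 8.23 CPM in apsMC706 EM libraries. All 3 sums were higher without EGF in both lines, while smooth muscle markers lay at 14.1 to 35.7 CPM. Single genes made up most of each noEGF sum. For fibroblasts these were Dcn in CTO19 (10.3 and 9.49 CPM) and Col3a1 in apsMC706 (7.12 and 8.56 CPM). Vwf led the endothelial sums and Cd14 the immune sums in both lines. Other markers, such as Pecam1, Cdh5 and Pdgfra in CTO19, were lower without EGF. The sums therefore do not show that these cell types increased. The mitochondrial share of counts was 4.13 to 5.19% in noEGF libraries and 2.94 to 3.68% in EM libraries. In bulk RNA, fewer cells of a type and less RNA per cell cannot be told apart.

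Without EGF, many of these genes moved in opposite directions in the 2 lines. A gene is called where edgeR's quasi-likelihood test gave a Benjamini-Hochberg adjusted p under 0.05 over all 16719 genes, and log2 fold changes are noEGF over EM. In CTO19 noEGF against CTO19 EM, 27 of 32 members were called (68% of all genes were), of which 10 rose (34.7% of all genes) and 17 fell (33.3%), with a median log2 fold change of -0.25 over the members and 0.02 over all genes. In apsMC706 noEGF against apsMC706 EM, 25 members were called (67.2% of all genes), of which 22 rose (34.1%) and 3 fell (33.1%), with a median of 0.55 over the members and 0.00 over all genes. The calls are 84.4% of the members in CTO19 (31.2% higher and 53.1% lower) and 78.1% in apsMC706 (68.8% higher and 9.38% lower). Changes of at least 2-fold were called for 6 members in CTO19 (17.6% of all genes), 4 higher (12.7%) and 2 lower (4.92%). In apsMC706 they were called for 12 members (19.6% of all genes), 11 higher (12.7%) and 1 lower (6.9%).

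**Figure D1:**
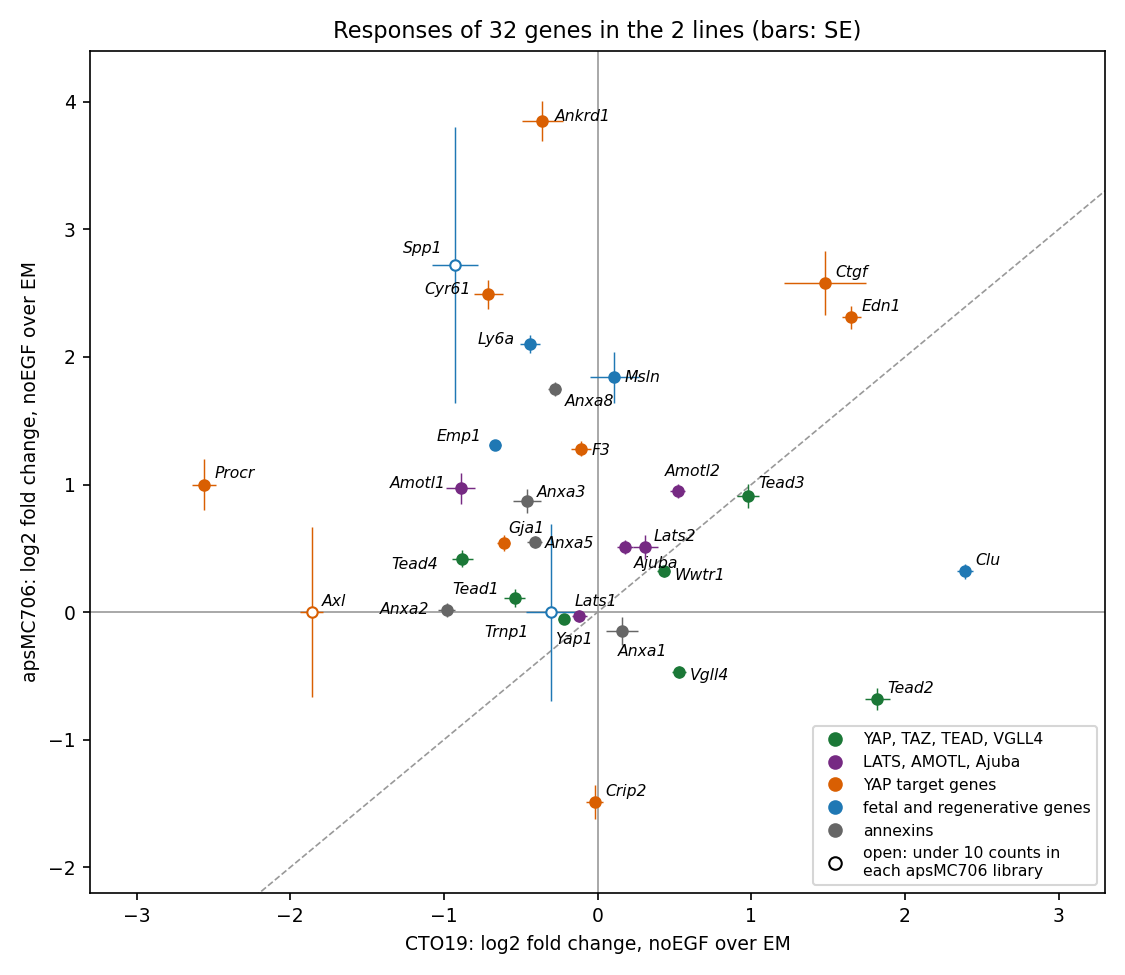
Response of each of the 32 tested genes to the medium without EGF, as the log2 fold change of noEGF over EM in CTO19 (x axis) and in apsMC706 (y axis), with bars for the standard error, colours for the gene's role, open points for genes with under 10 counts in each apsMC706 library, and a dashed line where the 2 responses are equal. Genes such as Ankrd1, Cyr61, Ly6a and Procr lie at upper left (higher in apsMC706, lower in CTO19), Ctgf and Edn1 at upper right, and Tead2 and Vgll4 at lower right.

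Set side by side, the 2 responses share no library. Of the 32 members, 12 (37.5%) rose in apsMC706 and fell in CTO19, as did 7.4% of all genes: Tead4, Amotl1, Ankrd1, Cyr61, Gja1, Procr, Ly6a, Emp1, Spp1, Anxa3, Anxa5 and Anxa8. The opposite pair of directions was found for 2 members, Tead2 and Vgll4 (5.88% of all genes). Another 8 members rose in both lines (17.1% of all genes): Wwtr1, Tead3, Lats2, Amotl2, Ajuba, Ctgf, Edn1 and Clu. No member fell in both lines, against 18.5% of all genes. The members were chosen with earlier results of these data known, so these shares are descriptive and not an independent test. Some of the calls counted were lost under alternatives, as given further on. Among the 12 these were Ankrd1 and Anxa3 in CTO19 and Spp1 in apsMC706. Among the 8 they were Lats2, Ajuba and Ctgf in CTO19. The test of the difference itself (CTO19 response minus apsMC706 response) called 25 members (56% of all genes), 21 of them with a lower response in CTO19 (25.6%) and 4 with a higher one (30.4%). Differences of at least 2-fold were called for 18 members (16.3% of all genes), 15 lower (8.19%) and 3 higher (8.15%), and the median difference was -0.98 over the members and 0.06 over all genes.

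**Figure D2:**
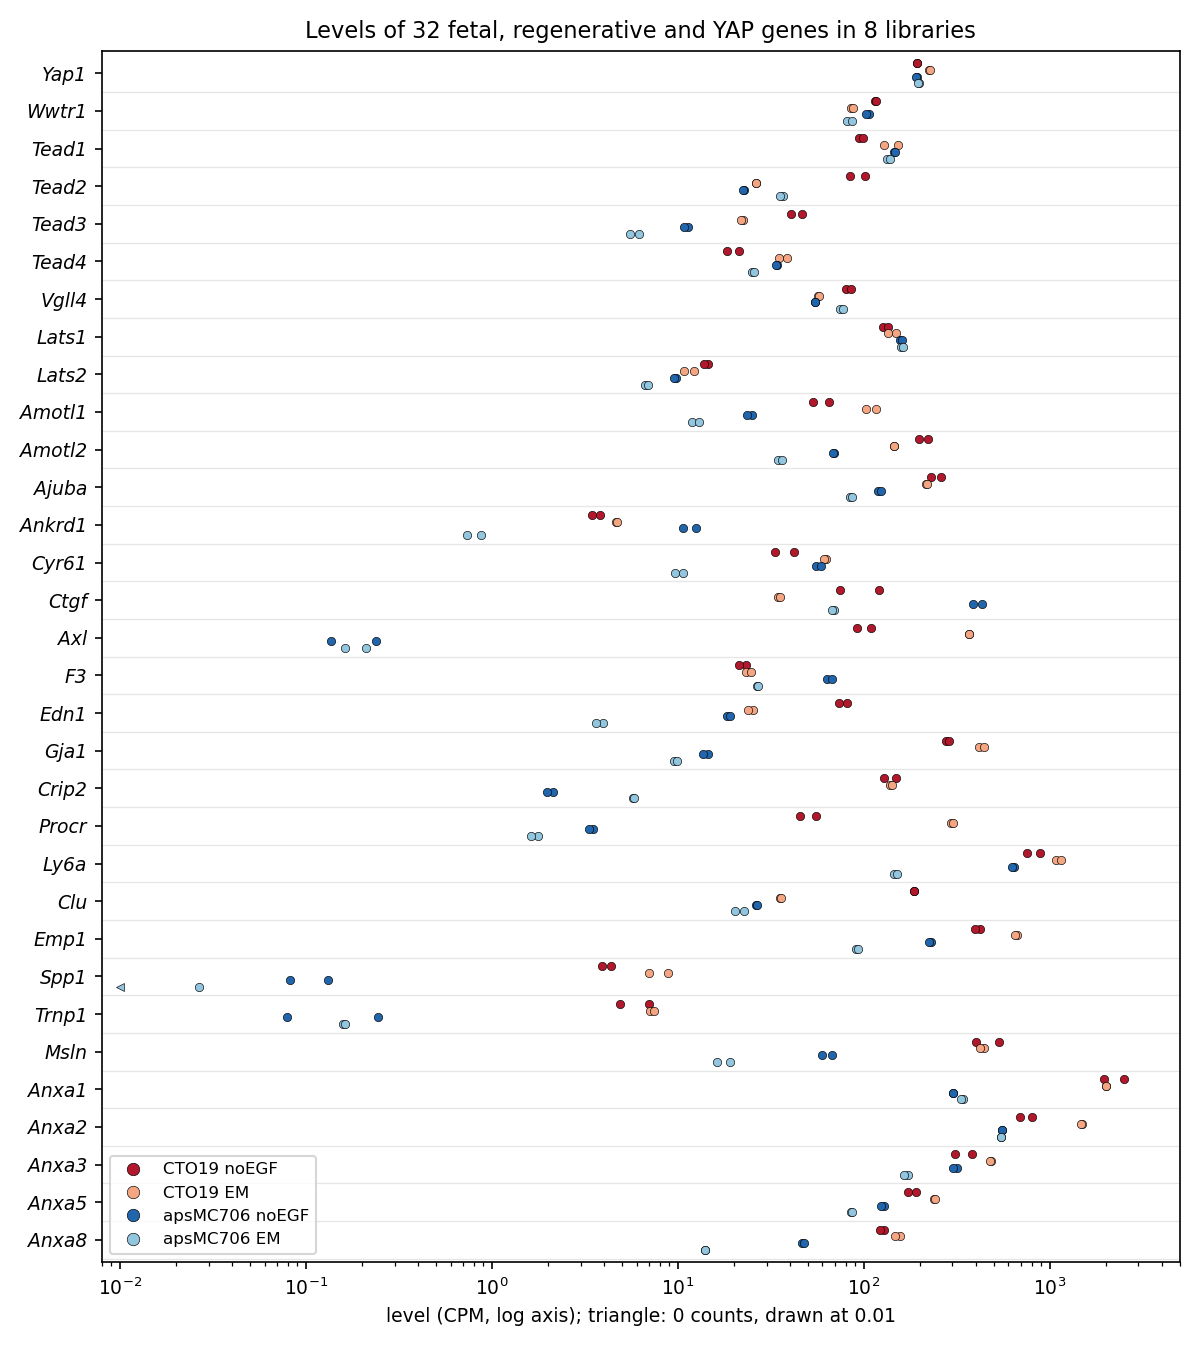
Level of each of the 32 tested genes in every library, in CPM on a log axis, with 1 point per library and colours for the 4 groups; the triangle marks the apsMC706 EM library with 0 counts of Spp1. The replicate points of a group lie close together for most genes, and for Axl, Procr, Gja1, Crip2 and Trnp1 every CTO19 library is far above every apsMC706 library.

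The coactivators themselves moved little. Yap1 was at 194 and 193 CPM in CTO19 noEGF and 224 and 226 CPM in CTO19 EM libraries. In apsMC706 it was at 193 and 190 CPM in noEGF and 199 and 196 CPM in EM libraries. It fell in CTO19 by 0.22 on the log2 scale (SE 0.0359, adjusted p = 8.3e-05), a 1.16-fold change, and was not called in apsMC706 (adjusted p = 0.252). The responses differed by -0.17 (adjusted p = 0.011), a call lost when any of 3 apsMC706 libraries was left out (adjusted p 9.89e-05 to 0.0704 over 15 alternatives). Wwtr1 was at 115 and 117 CPM in CTO19 noEGF and 84.9 and 87.3 CPM in CTO19 EM libraries. The apsMC706 levels were 107 and 103 CPM in noEGF and 81.7 and 86.6 CPM in EM libraries. In both lines the noEGF libraries were above the EM libraries, with log2 fold changes of 0.43 in CTO19 (SE 0.044, adjusted p = 6.57e-07) and 0.32 in apsMC706 (SE 0.0441, adjusted p = 1.29e-05). Per kb of exon, Wwtr1 made up 53.4 and 54% of the summed Yap1 and Wwtr1 level in CTO19 noEGF and 42.4 and 42.8% in CTO19 EM libraries, and 51.9 and 51.2% in apsMC706 noEGF and 44.3 and 46% in apsMC706 EM libraries. On this scale the share of TAZ RNA was above that of YAP RNA in every noEGF library and below it in every EM library. In CPM, Yap1 was above Wwtr1 in every library. The order thus depends on the exon lengths used (9257 bases for Yap1 and 4779 for Wwtr1). These take in all annotated exons, and the transcripts expressed were not examined.

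Of the 7 genes for YAP, TAZ, the TEADs and VGLL4, 4 rose and 3 fell in CTO19 (34.7 and 33.3% of all genes), and 3 rose and 2 fell in apsMC706 (34.1 and 33.1%). Among them the TEAD genes moved in different directions. Tead2, a TEAD gene expressed in the early mouse embryo, was at 84.3 and 102 CPM in CTO19 noEGF and 26.3 and 26.4 CPM in CTO19 EM libraries. Its level in apsMC706 was 22.8 and 22.3 CPM in noEGF and 36.9 and 35.4 CPM in EM libraries. It rose 3.54-fold in CTO19 (log2 1.82, SE 0.081, adjusted p = 7.13e-09) and fell in apsMC706 by 0.68 on the log2 scale (adjusted p = 3.38e-05), a difference of 2.50 (SE 0.118, adjusted p = 2.2e-08). Tead4 went the other way, with 21.4 and 18.5 CPM in CTO19 noEGF and 38.6 and 34.9 CPM in CTO19 EM libraries, against 34 and 33.9 CPM in apsMC706 noEGF and 25.1 and 25.7 CPM in apsMC706 EM libraries. Its log2 fold changes were -0.88 in CTO19 (SE 0.0705, adjusted p = 4.64e-08) and 0.42 in apsMC706 (SE 0.0691, adjusted p = 7.5e-05). The groups of each line did not overlap for either gene.

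Tead1 was at 94 and 98.9 CPM in CTO19 noEGF and 152 and 128 CPM in CTO19 EM libraries. In apsMC706 libraries it reached 145 and 148 CPM in noEGF and 134 and 138 CPM in EM libraries. It fell in CTO19 by 0.54 on the log2 scale (SE 0.0689, adjusted p = 4.61e-05) and was not called in apsMC706 (adjusted p = 0.18, though it passed in 8 of 16 alternatives), and the difference of -0.65 was called (adjusted p = 0.0002). Tead3 was at 40.7 and 46.4 CPM in CTO19 noEGF and 22.3 and 21.9 CPM in CTO19 EM libraries. The level in apsMC706 was 11.3 and 10.8 CPM in noEGF and 6.22 and 5.53 CPM in EM libraries. It rose in both lines, by 0.98 in CTO19 (SE 0.0709, adjusted p = 1.6e-08) and 0.91 in apsMC706 (SE 0.0975, adjusted p = 9.03e-07), and the difference of 0.07 (SE 0.122) was not called. Vgll4, a cofactor that competes with YAP for TEADs, was at 80.4 and 85.1 CPM in CTO19 noEGF and 57.1 and 57.7 CPM in CTO19 EM libraries. apsMC706 libraries had 54.8 and 54.9 CPM in noEGF and 74.5 and 77.2 CPM in EM libraries. Like Tead2 it rose in CTO19 (log2 0.53, adjusted p = 9.48e-08) and fell in apsMC706 (log2 -0.47, adjusted p = 2.94e-07), with a difference of 0.99 (SE 0.064, adjusted p = 9.29e-09).

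**Figure D3:**
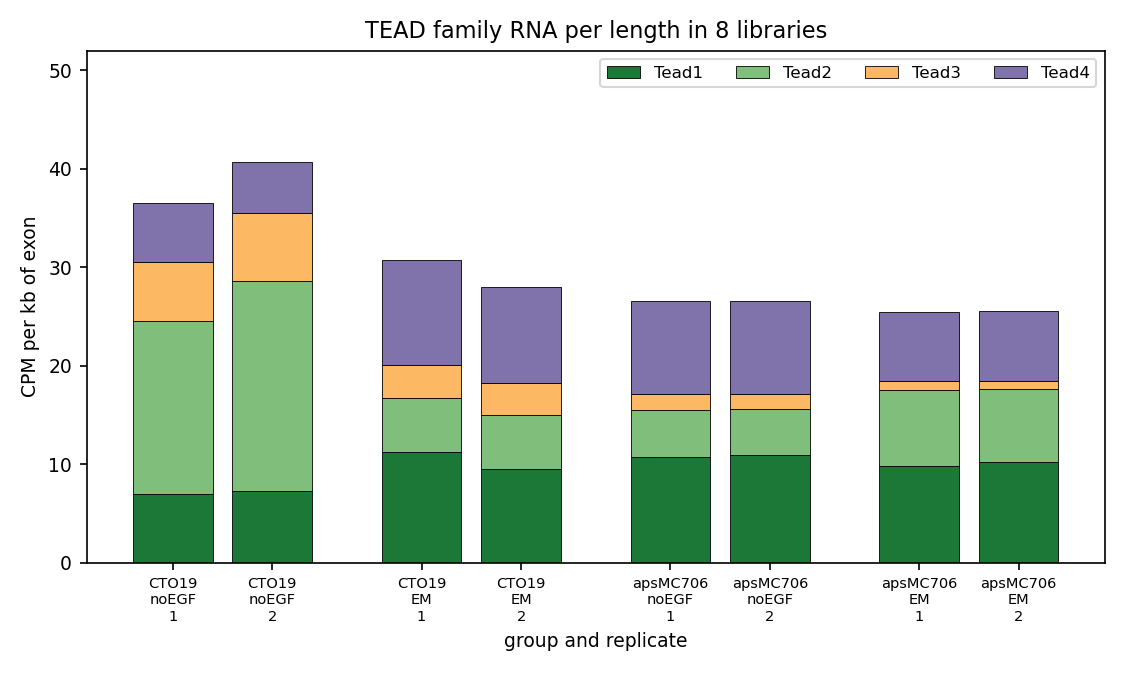
Level of the 4 TEAD genes in CPM per kb of exon, stacked, in each of the 8 libraries; bars start at 0. Tead2 is the largest segment in both CTO19 noEGF libraries (48.2 and 52.4% of the sum), while Tead1 or Tead4 is the largest in the CTO19 EM libraries and Tead1 in the apsMC706 libraries.

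Levels per kb of exon put genes of different length on a common scale, but use all annotated exons and not the transcripts expressed. Per kb, the TEAD sum was 36.5 and 40.7 in CTO19 noEGF and 30.8 and 28 in CTO19 EM libraries. It was 26.6 and 26.6 in apsMC706 noEGF and 25.5 and 25.6 in apsMC706 EM libraries. The Tead2 share of that sum was 48.2 and 52.4% in CTO19 noEGF and 17.9 and 19.7% in CTO19 EM libraries, against 17.9 and 17.5% in apsMC706 noEGF and 30.3 and 28.9% in apsMC706 EM libraries. The Tead1 share was 19 and 17.9% in CTO19 noEGF and 36.5 and 33.9% in CTO19 EM libraries, and lay between 38.7 and 41% in the apsMC706 libraries. The Tead4 share was 16.3 and 12.7% in CTO19 noEGF and 34.9 and 34.7% in CTO19 EM libraries, and 35.5 and 35.4% in apsMC706 noEGF and 27.4 and 28% in apsMC706 EM libraries. On this scale Tead2 was the most abundant TEAD RNA in the 2 CTO19 noEGF libraries alone, Tead4 in CTO19 EM replicate 2, and Tead1 in the other 5 libraries. In CPM, Tead2 led in CTO19 noEGF replicate 2 alone (102, against 98.9 for Tead1), and Tead1 led in every other library.

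Of the 5 Hippo regulators, 3 rose and 2 fell in CTO19 (34.7 and 33.3% of all genes), and 4 rose and 0 fell in apsMC706 (34.1 and 33.1%). The angiomotin-like genes divided. Amotl1, whose product holds YAP at junctions, was at 64.7 and 53.2 CPM in CTO19 noEGF and 116 and 103 CPM in CTO19 EM libraries. Levels in apsMC706 were 25.2 and 23.5 CPM in noEGF and 11.9 and 13 CPM in EM libraries. It fell in CTO19 (log2 -0.89, SE 0.0946, adjusted p = 5.55e-05) and rose in apsMC706 (log2 0.97, SE 0.124, adjusted p = 0.00017). Amotl2, a relative that is itself a YAP target, was at 221 and 197 CPM in CTO19 noEGF and 146 and 146 CPM in CTO19 EM libraries. Its level in apsMC706 was 69.3 and 68 CPM in noEGF and 34.8 and 36.5 CPM in EM libraries. It rose in both, by 0.52 in CTO19 (adjusted p = 2.92e-07) and 0.95 in apsMC706 (adjusted p = 1.06e-09), and less in CTO19 (difference -0.42, SE 0.0744, adjusted p = 0.000191). Per kb of exon, Amotl1 made up 11.4 and 9.96% of the angiomotin family RNA in CTO19 noEGF and 28.1 and 26.5% in CTO19 EM libraries, and 7.46 to 8.86% in the apsMC706 libraries.

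Ajuba, a LIM protein that restrains LATS, was at 261 and 229 CPM in CTO19 noEGF and 215 and 219 CPM in CTO19 EM libraries. In apsMC706 libraries it reached 120 and 124 CPM in noEGF and 84.5 and 86.2 CPM in EM libraries. Its rise was 0.18 in CTO19 (SE 0.0516, adjusted p = 0.00795) and 0.51 in apsMC706 (SE 0.054, adjusted p = 1.11e-06), and the CTO19 call was lost without CTO19 EM replicate 1, CTO19 EM replicate 2 or CTO19 noEGF replicate 1 (adjusted p 2.21e-05 to 0.0979 over 16 alternatives). Lats2, the LATS kinase gene induced by YAP, was at 14.6 and 13.9 CPM in CTO19 noEGF and 12.2 and 10.8 CPM in CTO19 EM libraries. The level in apsMC706 was 9.74 and 9.54 CPM in noEGF and 6.67 and 6.89 CPM in EM libraries. It rose by 0.31 in CTO19 (adjusted p = 0.00352, but 0.0502 without CTO19 EM replicate 2 and 0.00204 to 0.0502 over 16 alternatives) and by 0.51 in apsMC706 (adjusted p = 0.000172). Lats2 shares 2955 bases of exon on the same strand with Gm49361, which has 0 counts in every library, and how reads in that stretch were counted is not given in the sources used here. Lats1 was at 127 and 135 CPM in CTO19 noEGF and 149 and 135 CPM in CTO19 EM libraries. In apsMC706 it was at 156 and 160 CPM in noEGF and 159 and 163 CPM in EM libraries. Its fall of 0.12 in CTO19 (adjusted p = 0.0417) was lost in 11 of 16 alternatives (adjusted p 0.00125 to 0.322), including those without CTO19 EM replicate 1, CTO19 noEGF replicate 1 or any apsMC706 library.

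Of 18 further Hippo pathway genes, all tested, 8 rose and 6 fell in CTO19 (34.7 and 33.3% of all genes), and 4 rose and 11 fell in apsMC706 (34.1 and 33.1%). Amot, the founding angiomotin gene, was at 124 and 138 CPM in CTO19 noEGF and 51.7 and 44.7 CPM in CTO19 EM libraries, a rise of 1.44 (SE 0.0672, adjusted p = 4.09e-09). apsMC706 libraries had 124 and 120 CPM in noEGF and 76.7 and 75.5 CPM in EM libraries, a rise of 0.68 (adjusted p = 1.76e-06). Map4k4, a kinase upstream of LATS, rose in CTO19 (log2 0.44, adjusted p = 1.66e-07) and fell in apsMC706 (log2 -0.62, adjusted p = 4.56e-09). Frmd6, an upstream scaffold gene, fell in CTO19 (log2 -0.37, adjusted p = 9.91e-07) and rose in apsMC706 (log2 0.60, adjusted p = 4.33e-09). Mob1a, a coactivator of LATS, fell in CTO19 (log2 -0.45, adjusted p = 7.19e-08) and in apsMC706 (log2 -0.22, adjusted p = 9.5e-05). Limd1, a relative of Ajuba, rose in CTO19 (log2 0.15, adjusted p = 0.0116) and fell in apsMC706 (log2 -0.38, adjusted p = 1.57e-06).

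Of the 9 genes listed as YAP targets, 2 rose and 5 fell in CTO19 (34.7 and 33.3% of all genes), with a median log2 fold change of -0.36. In apsMC706, 7 rose and 1 fell (34.1 and 33.1%), with a median of 1.28. Whether YAP controls these genes directly here was not tested. Ankrd1, which encodes an ankyrin repeat protein and is a widely used YAP reporter, was at 3.82 and 3.45 CPM in CTO19 noEGF and 4.66 and 4.69 CPM in CTO19 EM libraries. The apsMC706 levels were 12.6 and 10.7 CPM in noEGF and 0.873 and 0.735 CPM in EM libraries. It rose 14.4-fold in apsMC706 (log2 3.85, SE 0.157, adjusted p = 2.18e-11). In CTO19 it fell by 0.36 on the log2 scale (SE 0.134, adjusted p = 0.026), a call lost under the DESeq2 test and without CTO19 EM replicate 1, CTO19 EM replicate 2 or CTO19 noEGF replicate 2 (adjusted p 0.0152 to 0.139 over 16 alternatives). The difference of -4.21 (SE 0.213, adjusted p = 8.08e-10) was the largest among the members.

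Cyr61, the matricellular protein gene now named Ccn1, was at 42.2 and 33.4 CPM in CTO19 noEGF and 62.4 and 61.1 CPM in CTO19 EM libraries. Levels in apsMC706 were 55.1 and 58.9 CPM in noEGF and 10.7 and 9.61 CPM in EM libraries. It rose 5.61-fold in apsMC706 (log2 2.49, SE 0.115, adjusted p = 9.35e-08) and fell 1.63-fold in CTO19 (log2 -0.71, SE 0.0971, adjusted p = 0.000193). The apsMC706 noEGF libraries lay just under the CTO19 EM libraries and above the CTO19 noEGF libraries. Ctgf (Ccn2), the neighbour of Cyr61 in function, was at 121 and 74.6 CPM in CTO19 noEGF and 34.8 and 35.3 CPM in CTO19 EM libraries. In apsMC706 libraries it reached 433 and 385 CPM in noEGF and 69.2 and 67.4 CPM in EM libraries. It rose in both lines, 2.78-fold in CTO19 (log2 1.48, SE 0.266, adjusted p = 0.00748) and 5.99-fold in apsMC706 (log2 2.58, SE 0.253, adjusted p = 0.000786), and the difference of -1.10 was not called (adjusted p = 0.0602, though it passed in 5 of 15 alternatives). The CTO19 call was narrowly lost without either CTO19 EM library (adjusted p up to 0.0526 and down to 1.82e-14 over 16 alternatives). Ctgf overlaps 665 bases of a gene on the opposite strand, Gm15270, and the library kit does not mark strand, so their reads cannot be told apart.

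Edn1, the gene of the secreted peptide endothelin-1, was at 81.2 and 73.2 CPM in CTO19 noEGF and 25.4 and 23.9 CPM in CTO19 EM libraries. The level in apsMC706 was 18.4 and 19.2 CPM in noEGF and 3.94 and 3.65 CPM in EM libraries. It rose 3.13-fold in CTO19 (log2 1.65, SE 0.0614, adjusted p = 1.98e-11) and 4.95-fold in apsMC706 (log2 2.31, SE 0.0909, adjusted p = 1.57e-11). F3, the gene of tissue factor, was at 23.4 and 21.3 CPM in CTO19 noEGF and 23.3 and 24.9 CPM in CTO19 EM libraries. In apsMC706 it was at 63.2 and 67.3 CPM in noEGF and 26.6 and 27.1 CPM in EM libraries. It rose 2.43-fold in apsMC706 (adjusted p = 6.65e-11) and overlapped between the media in CTO19 (adjusted p = 0.147), with a called difference of -1.39 (SE 0.0864, adjusted p = 6.6e-09).

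Procr, the gene of the protein C receptor, was at 55.7 and 45.4 CPM in CTO19 noEGF and 294 and 303 CPM in CTO19 EM libraries. The apsMC706 levels were 3.52 and 3.33 CPM in noEGF and 1.77 and 1.63 CPM in EM libraries. It fell 5.91-fold in CTO19 (log2 -2.56, SE 0.0778, adjusted p = 1.31e-09) and rose in apsMC706 (log2 1.00, SE 0.202, adjusted p = 0.00138). Gja1, which encodes a gap junction connexin, was at 277 and 289 CPM in CTO19 noEGF and 419 and 442 CPM in CTO19 EM libraries. Its level in apsMC706 was 14.5 and 13.7 CPM in noEGF and 9.5 and 9.89 CPM in EM libraries. It too fell in CTO19 (log2 -0.61, adjusted p = 8.9e-09) and rose in apsMC706 (log2 0.54, adjusted p = 2.74e-06). Both genes therefore moved toward each other in the 2 lines while staying far higher in CTO19.

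Axl, a receptor tyrosine kinase gene, was at 110 and 91.9 CPM in CTO19 noEGF and 367 and 368 CPM in CTO19 EM libraries, and had 5 and 9 counts in apsMC706 noEGF and 8 and 6 counts in apsMC706 EM libraries. It fell in CTO19 by 1.86 on the log2 scale (SE 0.0735, adjusted p = 1.06e-08). The apsMC706 counts are too few to show a response, and the call on the difference (-1.86, SE 0.702, adjusted p = 0.0469) was lost in 6 of 15 alternatives, with adjusted p 0.000749 to 0.276: under limma-voom and without apsMC706 EM replicate 1 or 2, apsMC706 noEGF replicate 2 or CTO19 EM replicate 1 or 2. Crip2, a LIM protein gene, was at 149 and 129 CPM in CTO19 noEGF and 139 and 142 CPM in CTO19 EM libraries. In apsMC706 libraries it reached 2.13 and 1.98 CPM in noEGF and 5.74 and 5.8 CPM in EM libraries. It was the only target among the 9 to fall in apsMC706 (log2 -1.49, SE 0.135, adjusted p = 2.66e-07), and its difference was 1.47 (SE 0.147, adjusted p = 1.39e-06).

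Of 15 further genes of published YAP signatures, all tested, 6 rose and 5 fell in CTO19 (34.7 and 33.3% of all genes), and 4 rose and 3 fell in apsMC706 (34.1 and 33.1%). Their median log2 fold change was 0.11 in CTO19 and -0.01 in apsMC706, against 0.02 and 0.00 over all genes. The opposite medians of the 9 listed targets were thus not seen in these 15 genes. In CTO19 these counts are near the shares of all genes. Gadd45a, a stress-induced gene, was at 10.6 and 11.7 CPM in CTO19 noEGF and 8.8 and 9.16 CPM in CTO19 EM libraries. The level in apsMC706 was 33.6 and 36.7 CPM in noEGF and 5.08 and 5.26 CPM in EM libraries, a 6.8-fold rise in apsMC706 (log2 2.76, SE 0.0834, adjusted p = 1.25e-12). Tgfb2, a TGF-beta ligand gene, was at 123 and 111 CPM in CTO19 noEGF and 14.7 and 12.4 CPM in CTO19 EM libraries, an 8.62-fold rise (log2 3.11, SE 0.0903, adjusted p = 1.88e-10). In apsMC706 Tgfb2 stayed at or under 0.212 CPM in every library. Ccdc80, a secreted matrix protein gene, rose in CTO19 (log2 3.21, adjusted p = 3.41e-11) and in apsMC706 (log2 1.27, adjusted p = 0.00325), and so did Arhgef17, by 0.85 in CTO19 (adjusted p = 2.87e-08) and 0.61 in apsMC706 (adjusted p = 8.07e-08). Asap1 fell in CTO19 (log2 -0.60, adjusted p = 2e-08) and was not called in apsMC706 (adjusted p = 0.341). Dock5 fell in CTO19 (log2 -1.28, adjusted p = 5.21e-07) and in apsMC706 (log2 -0.33, adjusted p = 0.00628). Ptpn14, a phosphatase gene that restrains YAP, was at 140 and 141 CPM in CTO19 noEGF and 76.2 and 65.5 CPM in CTO19 EM libraries, and at 94 and 90 CPM in apsMC706 noEGF and 120 and 128 CPM in apsMC706 EM libraries. It rose in CTO19 (log2 0.99, SE 0.0615, adjusted p = 2.54e-08) and fell in apsMC706 (log2 -0.43, SE 0.0606, adjusted p = 4.04e-05). Nuak2, a kinase gene, was not called in CTO19 (adjusted p = 0.839) and fell in apsMC706 (log2 -0.32, adjusted p = 0.000675).

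Of the 6 fetal and regenerative markers, 1 rose and 3 fell in CTO19 (34.7 and 33.3% of all genes), with a median log2 fold change of -0.37, and 5 rose and 0 fell in apsMC706 (34.1 and 33.1%), with a median of 1.58. Ly6a, which encodes the surface protein Sca-1 and marks the regenerating mouse colon, was at 883 and 759 CPM in CTO19 noEGF and 1076 and 1153 CPM in CTO19 EM libraries. apsMC706 libraries had 646 and 626 CPM in noEGF and 146 and 151 CPM in EM libraries. It rose 4.28-fold in apsMC706 (log2 2.10, SE 0.0693, adjusted p = 1.14e-09) and fell 1.36-fold in CTO19 (log2 -0.44, SE 0.0656, adjusted p = 0.000175). Ly6a belongs to a cluster of related genes, and how reads that match several of them were counted is not given in the sources used here. Emp1, an epithelial membrane protein gene, was at 423 and 398 CPM in CTO19 noEGF and 664 and 647 CPM in CTO19 EM libraries. Levels in apsMC706 were 230 and 225 CPM in noEGF and 90.3 and 93.3 CPM in EM libraries. It followed Ly6a, with log2 fold changes of -0.67 in CTO19 (adjusted p = 1.89e-09) and 1.31 in apsMC706 (adjusted p = 2.13e-12).

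Clu, which encodes the chaperone clusterin and marks the revival stem cell of the injured mouse intestine, behaved differently. It was at 187 and 187 CPM in CTO19 noEGF and 35.5 and 35.7 CPM in CTO19 EM libraries. Its level in apsMC706 was 26.5 and 26.8 CPM in noEGF and 22.6 and 20.2 CPM in EM libraries. Its rise was 5.25-fold in CTO19 (log2 2.39, SE 0.0496, adjusted p = 1.9e-13) and 1.25-fold in apsMC706 (log2 0.32, SE 0.0567, adjusted p = 0.000157), with a difference of 2.08 (SE 0.0751, adjusted p = 3.65e-11). Clu and Ly6a therefore parted in CTO19, where Clu rose and Ly6a fell.

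Msln, the gene of the surface protein mesothelin, was at 536 and 400 CPM in CTO19 noEGF and 444 and 424 CPM in CTO19 EM libraries. In apsMC706 libraries it reached 67.5 and 59.8 CPM in noEGF and 19.2 and 16.3 CPM in EM libraries. It rose 3.58-fold in apsMC706 (log2 1.84, SE 0.202, adjusted p = 0.000892), and in CTO19 the groups overlapped (adjusted p = 0.588). Spp1, the gene of osteopontin, was at 3.93 and 4.4 CPM in CTO19 noEGF and 7.01 and 8.85 CPM in CTO19 EM libraries, and fell there by 0.93 on the log2 scale (SE 0.15, adjusted p = 6.65e-05). In apsMC706 it had 3 and 5 counts in noEGF and 1 and 0 counts in EM libraries, a ratio of 8 with an exact 95% counting interval of 1.07 to 355. The apsMC706 call (adjusted p = 0.0371) was lost under DESeq2 and without apsMC706 EM replicate 2 or apsMC706 noEGF replicate 2 (adjusted p 0.0242 to 0.182 over 15 alternatives). The difference of responses (-3.65, adjusted p = 0.00926) did not pass when either of these libraries was left out (-2.82 at adjusted p = 0.0534 for the EM one and -3.26 at adjusted p = 0.0727 for the noEGF one), with adjusted p 0.00174 to 0.0727 over 15 alternatives. Trnp1, a nuclear protein gene listed with the mouse fetal intestinal programme, was at 4.87 to 7.45 CPM in the 4 CTO19 libraries and had 3 to 9 counts in the apsMC706 libraries, and was called in neither line.

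Of 12 further fetal and regenerative genes, 11 were tested. In CTO19, 6 rose and 4 fell (34.7 and 33.3% of all genes), and in apsMC706, 8 rose and 0 fell (34.1 and 33.1%). The response was higher in CTO19 for 0 and lower for 7 (30.4 and 25.6% of all genes). Cxadr, a junction protein gene, was at 247 and 268 CPM in CTO19 noEGF and 115 and 114 CPM in CTO19 EM libraries. The level in apsMC706 was 84.7 and 81 CPM in noEGF and 37 and 36.9 CPM in EM libraries. It rose by 1.16 in CTO19 (SE 0.0448, adjusted p = 2.67e-11) and 1.17 in apsMC706 (SE 0.0491, adjusted p = 3.13e-11). Ly6d, a relative of Ly6a, rose by 1.41 in CTO19 (SE 0.0537, adjusted p = 2.44e-11) and 2.72 in apsMC706 (SE 0.144, adjusted p = 3.46e-10). Areg, the gene of the EGF receptor ligand amphiregulin, was at 6.24 and 6.56 CPM in CTO19 noEGF and 25.9 and 24.6 CPM in CTO19 EM libraries. In apsMC706 it was at 4.2 and 3.59 CPM in noEGF and 2.57 and 2.23 CPM in EM libraries. It fell in CTO19 (log2 -1.98, SE 0.09, adjusted p = 1.4e-10), while both apsMC706 noEGF libraries were above both apsMC706 EM libraries. Tnfrsf12a, a TNF receptor family gene, fell in CTO19 (log2 -0.65, adjusted p = 1.1e-07) and rose in apsMC706 (log2 1.15, adjusted p = 3.22e-10).

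The annexins, calcium-dependent membrane-binding proteins of which several mark the fetal epithelium, fell in CTO19 for 4 of the 5 tested (33.3% of all genes) and rose in apsMC706 for 3 (34.1%). Anxa8 was at 128 and 122 CPM in CTO19 noEGF and 157 and 148 CPM in CTO19 EM libraries. The apsMC706 levels were 46.3 and 47.5 CPM in noEGF and 14 and 14 CPM in EM libraries. It rose 3.35-fold in apsMC706 (log2 1.75, SE 0.0554, adjusted p = 2.06e-12) and fell by 0.28 in CTO19 (SE 0.0439, adjusted p = 4.54e-05). Anxa3 was at 384 and 311 CPM in CTO19 noEGF and 482 and 476 CPM in CTO19 EM libraries. Levels in apsMC706 were 316 and 303 CPM in noEGF and 173 and 165 CPM in EM libraries. Its rise in apsMC706 was 0.87 (SE 0.0943, adjusted p = 0.000151), and its fall of 0.46 in CTO19 (adjusted p = 0.0038) was lost without either CTO19 EM library (adjusted p 2.9e-13 to 0.0776 over 16 alternatives). Anxa5 was at 192 and 172 CPM in CTO19 noEGF and 239 and 243 CPM in CTO19 EM libraries. In apsMC706 libraries it reached 129 and 124 CPM in noEGF and 85.4 and 86.8 CPM in EM libraries, with log2 fold changes of -0.41 in CTO19 (adjusted p = 2.73e-06) and 0.55 in apsMC706 (adjusted p = 1.32e-07). These 3 annexins share the pattern of Ly6a and Emp1.

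Anxa2 was at 803 and 693 CPM in CTO19 noEGF and 1487 and 1469 CPM in CTO19 EM libraries. The level in apsMC706 was 556 and 555 CPM in noEGF and 549 and 544 CPM in EM libraries. It fell 1.98-fold in CTO19 (log2 -0.98, SE 0.0554, adjusted p = 9.92e-09) and was not called in apsMC706 (adjusted p = 0.744). Anxa1, the most abundant annexin RNA of CTO19, was at 2503 and 1968 CPM in CTO19 noEGF and 2010 and 2005 CPM in CTO19 EM libraries. In apsMC706 it was at 302 and 302 CPM in noEGF and 340 and 332 CPM in EM libraries, and was called in neither line. Anxa10 was not tested. It had 0.0538 and 0.248 CPM in CTO19 noEGF and 0.0868 and 0.225 CPM in CTO19 EM libraries and 0 counts in all 4 apsMC706 libraries, where a count of 0 allows up to 3 counts, or 0.0792 to 0.0818 CPM.

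When medium was tested over both lines, with line as a second term, 9 members were called (48.8% of all genes), 8 higher (25.5%) and 1 lower (23.3%) without EGF. Of these, 4 changed at least 2-fold (15.7% of all genes), 3 higher (11.6%) and 1 lower (4.1%). The 8 are those that rose in each line. The steepest were Ctgf, which rose by 2.04 on the log2 scale (SE 0.26, adjusted p = 0.000851), Edn1, with 1.96 (SE 0.141, adjusted p = 0.000112), and Clu, with 1.37 (SE 0.412, adjusted p = 0.0281). The Clu call was lost without either CTO19 EM library and with the replicate number as a block (adjusted p = 0.0515), and ranged from 0.00072 to 0.353 over 16 alternatives. Axl was the 1 lower call (log2 -1.68, adjusted p = 0.0015), with its reads nearly all in CTO19. When replicate libraries were summed, which makes the line the unit, none of the 9 was called by edgeR, and 0 genes were called in all, with 2809 at an unadjusted p under 0.05. That fit rests on 4 summed samples and leaves few residual degrees of freedom. Its lack of calls therefore cannot decide whether the members responded.

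The lines stood apart in either medium, with most members higher in CTO19. In noEGF, 30 members were called between CTO19 and apsMC706 (80% of all genes), 23 higher in CTO19 (45.7%) and 7 lower (34.3%), and 19 differed at least 2-fold (34.2%), 16 higher (22%) and 3 lower (12.2%). In EM, 30 were called (71.3% of all genes), 25 higher in CTO19 (37.5%) and 5 lower (33.8%), and 21 differed at least 2-fold (28.6%), all 21 higher in CTO19 (19.4%) and 0 lower (9.15%). The median log2 difference of CTO19 over apsMC706 was 0.93 over the members and 0.13 over all genes in noEGF, and 1.97 over the members and 0.02 over all genes in EM. Both CTO19 libraries were above both apsMC706 libraries for 24 members in noEGF and 25 in EM, as for 50.9% and 44.2% of all genes.

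**Figure D4:**
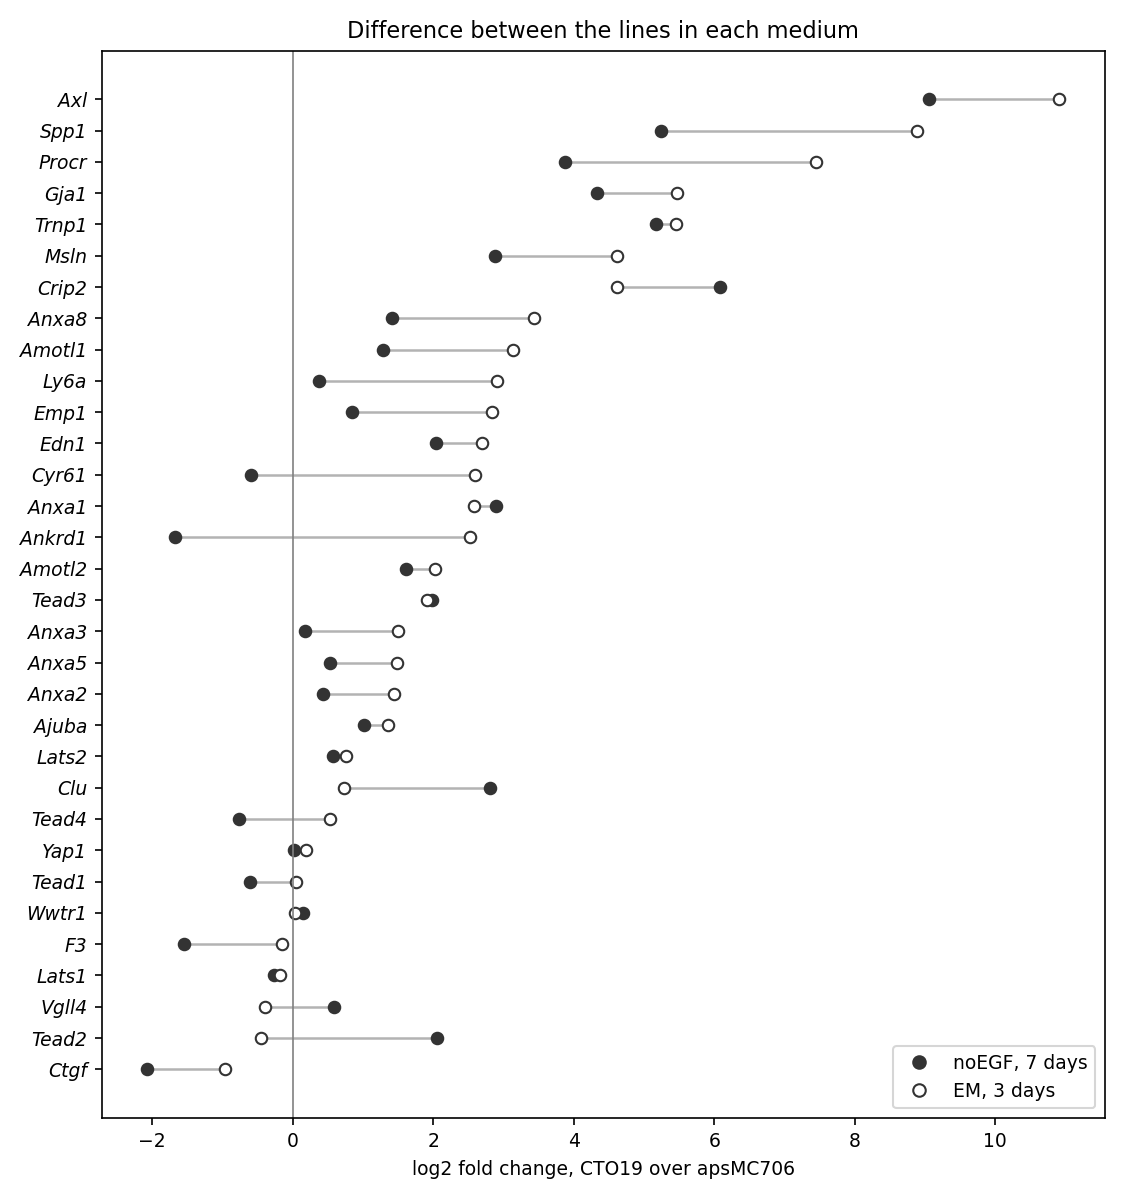
Difference between the lines for each of the 32 tested genes, as the log2 fold change of CTO19 over apsMC706, in noEGF at 7 days (filled points) and in EM at 3 days (open points), sorted by the EM value. The filled point lies left of the open one for most genes, and for Ankrd1, Cyr61, Tead1, Tead2, Tead4 and Vgll4 the 2 points lie on opposite sides of 0. The shift between the 2 points is the difference of responses in another form, from the same libraries.

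Wide gaps were found in genes that apsMC706 expressed at low levels. Axl stood 9.05 higher in CTO19 on the log2 scale in noEGF (SE 0.174, adjusted p = 1.32e-11) and 10.91 in EM (SE 0.159, adjusted p = 1.93e-12). For Procr the gap was 3.88 in noEGF (SE 0.115) and 7.45 in EM (SE 0.12, adjusted p = 3e-12), and for Gja1 4.33 in noEGF (SE 0.0523) and 5.47 in EM (SE 0.0554, adjusted p = 4.48e-18). Spp1 had 557 counts in CTO19 EM and 1 count in apsMC706 EM, a ratio of 592 scaled for library size with a counting interval of 106 to 23414. For Crip2 the gap was wider in noEGF, at 6.08 (SE 0.0922), than in EM, at 4.61 (SE 0.0785).

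For some members the gap differed between the media, and for others, such as Tead3 (log2 1.98 in noEGF and 1.91 in EM), the test called no difference (adjusted p = 0.645). The change of gap is the same contrast as the difference of responses given above, so it is not separate evidence. Ly6a stood 1.29-fold higher in CTO19 in noEGF (log2 0.37, SE 0.0657, adjusted p = 0.000448) and 7.51-fold higher in EM (log2 2.91, SE 0.0711, adjusted p = 6.74e-11). Anxa3 was not called in noEGF (adjusted p = 0.137) and was 2.83-fold higher in EM (adjusted p = 6.75e-06). Ankrd1 changed sides, being 3.21-fold lower in CTO19 in noEGF (adjusted p = 4.98e-09) and 5.79-fold higher in EM (adjusted p = 5.88e-09). Cyr61 did so too, at 1.51-fold lower in noEGF (adjusted p = 0.000433) and 6.08-fold higher in EM (adjusted p = 5.57e-08). Tead2 changed sides the other way, at 4.13-fold higher in CTO19 in noEGF (adjusted p = 9.53e-10) and lower in EM (log2 -0.45, adjusted p = 0.000623).

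A few members were lower in CTO19. Ctgf was 4.19-fold lower in CTO19 in noEGF (log2 -2.07, SE 0.246, adjusted p = 0.00127), and its difference in EM (log2 -0.96, SE 0.269, adjusted p = 0.0306) was lost on leaving out any 1 of the 4 EM libraries and with no filter on low counts (adjusted p 3.52e-12 to 0.131 over 15 alternatives). F3 was 2.92-fold lower in noEGF (log2 -1.55, SE 0.059, adjusted p = 3.47e-12), and its EM difference of -0.16 (adjusted p = 0.0373) was lost in 6 of 15 alternatives (adjusted p 0.017 to 0.176), including those without apsMC706 EM replicate 1 or 2 or CTO19 EM replicate 1. Lats1 was lower in noEGF (log2 -0.27, adjusted p = 0.000113) and in EM (log2 -0.18, adjusted p = 0.00318). The coactivators were near level, with Yap1 not called in noEGF (adjusted p = 0.648) and higher in CTO19 by 0.19 in EM (adjusted p = 0.000279). The Wwtr1 difference of 0.14 in noEGF (adjusted p = 0.00716) was lost in 8 of 15 alternatives (adjusted p 0.00175 to 0.431), including those without either CTO19 noEGF library or apsMC706 noEGF replicate 2, and in EM it was not called (adjusted p = 0.511).

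Adult stem cell markers ran the other way between the lines. Of 9 such genes, 8 were tested, and in noEGF 6 were lower in CTO19 and 0 higher (34.3 and 45.7% of all genes), while in EM all 8 were lower (33.8%). The summed colon and intestine markers were also lower in CTO19 (37.3 to 89.4 CPM) than in apsMC706 (672 to 978 CPM). Lower stem cell markers and lower intestinal identity cannot be told apart here. Rnf43, a Wnt feedback inhibitor gene, was at 236 and 266 CPM in CTO19 noEGF and 82.8 and 84.2 CPM in CTO19 EM libraries. The apsMC706 levels were 331 and 329 CPM in noEGF and 230 and 236 CPM in EM libraries. It was 2.79-fold lower in CTO19 in EM (log2 -1.48, SE 0.0509, adjusted p = 1.61e-12) and rose without EGF in both lines, by 1.59 in CTO19 (adjusted p = 6.07e-12) and 0.50 in apsMC706 (adjusted p = 3e-07). In CTO19, 6 of the 8 stem cell markers rose and 1 fell (34.7 and 33.3% of all genes), with a median log2 fold change of 0.67, and in apsMC706, 4 rose and 1 fell (34.1 and 33.1%), with a median of 0.28. Axin2, a Wnt target gene, rose in CTO19 (log2 0.67, adjusted p = 1.13e-05). Lrig1, a gene for an inhibitor of EGF receptor family signalling, fell in CTO19 (log2 -0.33, adjusted p = 0.000523) and rose in apsMC706 (log2 0.37, adjusted p = 0.000151). The faller in apsMC706 was Ascl2, a stem cell transcription factor gene, at 17.6 and 16.6 CPM in noEGF and 35.7 and 35.4 CPM in EM libraries (log2 -1.05, SE 0.105, adjusted p = 3.85e-06), while in CTO19 it rose (log2 0.74, adjusted p = 0.000886).

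The annexin family also differed in makeup between the lines. Per kb of exon, Anxa1 was 58 and 54.3% of the summed annexin RNA in CTO19 noEGF and 44.3 and 44.4% in CTO19 EM libraries, against 12.8 and 12.8% in apsMC706 noEGF and 17.1 and 16.8% in apsMC706 EM libraries. Anxa4, which is not among the 33 genes, made up 2.29 to 2.9% in the CTO19 libraries and 26.4 to 29.2% in the apsMC706 libraries. Anxa4 was at 166 and 168 CPM in CTO19 noEGF and 166 and 170 CPM in CTO19 EM libraries. Its level in apsMC706 was 1052 and 1102 CPM in noEGF and 835 and 838 CPM in EM libraries. It was 6.45-fold lower in CTO19 in noEGF (log2 -2.69, SE 0.0401, adjusted p = 1.15e-16) and 4.99-fold lower in EM (log2 -2.32, SE 0.0397, adjusted p = 5.07e-16), the reverse of all 5 tested annexins among the members in EM. Anxa4 was not alone. Of 6 annexins outside the members, 5 were tested. In EM, 4 were lower in CTO19 and 1 higher (33.8 and 37.5% of all genes). In noEGF, 3 were lower and 0 higher (34.3 and 45.7%).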

How the data were processed

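Poly(A) RNA of 8 organoid libraries was prepared with a kit that does not mark strand and 8 cycles of amplification, per the labels' protocols. The authors deposited raw counts per gene. STAR 2.7.0a and build mm10 are named, per the submitters' processing notes. For the counting program and its annotation, the sources used here give no name. Gene positions and exon lengths came from GENCODE M21, which matched 32627 of 32728 names. Genes were kept with filterByExpr (16719 genes, 99.971% of counts) and scaled by TMM. edgeR 4.0.16 in R 4.3.3 gave quasi-likelihood tests, with Benjamini-Hochberg adjustment over all genes tested, from a model of 4 group means (4 residual degrees of freedom and a coefficient of biological variation of 4.27%) and, over both lines, one with terms for line and medium (5 degrees of freedom, 16.9%). limma 3.58.1 and DESeq2 1.42.0 were alternatives, as were other scalings and filters, a replicate block, each line alone, summed libraries and leaving out each library. Scripts were tested on simulated data. A count of 0 allows up to 3 counts, and intervals and floors cover counting error only. Members and lists were chosen with earlier results of these data known. Of each list of other genes, those named are among the 2 of smallest p in each direction in a comparison described, and 1 such gene is not reported here. Members are given by library where they were called, or where they belong to the YAP, TEAD or Hippo genes.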

Additional observations from a re-analysis of the deposited data

Results flagged for a closer look

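The response to the medium without EGF differed between the lines for 25 members by edgeR's test of the difference itself, and the values here are that difference in log2 units, CTO19 response minus apsMC706 response. The response was higher in CTO19 for 4 genes: Tead2 (2.50), Clu (2.08), Crip2 (1.47) and Vgll4 (0.99). It was lower in CTO19 for 21 genes. Among the coactivators and TEAD factors these were Tead1 (-0.65), Tead4 (-1.30) and Yap1 (-0.17). Among the Hippo regulators they were Amotl1 (-1.86), Amotl2 (-0.42) and Ajuba (-0.34). Among the YAP targets they were Ankrd1 (-4.21), Cyr61 (-3.20), Procr (-3.57), Axl (-1.86), F3 (-1.39), Gja1 (-1.14) and Edn1 (-0.66). Among the fetal and regenerative markers they were Ly6a (-2.54), Emp1 (-1.99), Spp1 (-3.65) and Msln (-1.73). Among the annexins they were Anxa8 (-2.03), Anxa3 (-1.34), Anxa2 (-1.01) and Anxa5 (-0.96). The values for Axl and Spp1 rest on 9 or fewer counts in each apsMC706 library. For Spp1, leaving out replicate 2 of apsMC706 ended the call, at -2.82 (adjusted p = 0.0534) for the EM library and -3.26 (adjusted p = 0.0727) for the noEGF library, with adjusted p 0.00174 to 0.0727 over 15 alternatives.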

How the results depend on the processing

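Over the 6 comparisons, 146 member values were called. None reversed under any alternative run, and 22 lost the call under at least 1 of them. Leaving out 1 library, the members called numbered 22 to 28 in CTO19 noEGF against EM (27 with all libraries), 24 to 27 in apsMC706 (25), 8 to 10 over both lines (9), 22 to 28 for the difference of responses (25), 29 to 30 for CTO19 against apsMC706 in noEGF (30) and 28 to 30 in EM (30). Scaling, filter, test and choice of libraries gave 25 to 28, 25 to 27, 8 to 12, 25 to 27, 29 to 31 and 29 to 30 in the same order. With summed libraries, which leave few residual degrees of freedom, the members called over both lines numbered 0. Of the 46 member values that were not called, 21 changed sign and 16 passed the threshold under some alternative.

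Replicate numbers did not pair the libraries, since deviations of same-numbered libraries correlated at -0.00825 to 0.0485. With the replicate block, 27 members were called in CTO19, 25 in apsMC706, 8 over both lines, 25 for the difference, and 31 in noEGF and 30 in EM between the lines. With 2 libraries a group, 1 library can decide a small change, and Axl, Spp1, Trnp1 and Anxa10 are limited by depth in apsMC706.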
